A study of Mus musculus with 12 samples.

Results

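The genes described here are 34 genes whose products mark or serve B lymphocytes, the antibody-forming lineage of white blood cells, read in an erythroid fraction of the mouse spleen. They were taken from the deposited table as probe sets annotated to a single one of the 34 listed symbols, with the probe set of the highest mean over all arrays where a gene had several. Each of the 34 genes had exactly 1 such probe set, and all 34 passed the filter on low signal, among 12980 genes tested. Measured values did not enter this choice of probe sets beyond that mean.

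RNA came from spleen cells of 3-month-old mice, sorted as positive for Ter119, an antigen of the erythroid lineage, with a high level of CD71, the transferrin receptor that is abundant on dividing red cell precursors. The 12 one-colour Affymetrix arrays carried 4 genotype labels with 3 arrays each: WT, E2f8 KO, Rb KO and the double knockout of both genes, called DKO here. E2f8 is an atypical E2F transcription factor and Rb the retinoblastoma protein that restrains other E2F factors. The sources used here name neither the strain and sex nor the way each allele was deleted, a Cre driver or a pooling of animals. The labels call the arrays of a group biological replicates without naming animals. Adjusted p-values therefore weigh a difference against the spread between these arrays, estimated jointly over the 4 labels.

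A mature B cell carries an antigen receptor made of a membrane immunoglobulin and the signalling pair Cd79a and Cd79b. Kinases and adaptors pass its signal on, co-receptors raise or damp it, and the factors Ebf1 and Pax5 hold the lineage identity. In the spleen, B cells sit in follicles and in the marginal zone, apart from the red pulp where red cell precursors mature next to macrophages. Antibody-secreting plasma cells shut down most of this program while they keep Jchain, which joins IgM and IgA into polymers. None of these genes defines the sorted erythroid population.

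E2f8 went against the labels that name it and Rb1 followed its labels only in part, so the genotype names below are labels only. The 1 measured E2f8 probe set stood at 11.70 to 12.28 log2 units in WT and at 11.68 to 12.52 in Rb KO, but at 12.74 to 12.89 in the arrays labelled E2f8 KO and 13.09 to 13.17 in those labelled DKO. Rb1, which encodes Rb, ranged over 12.71 to 13.02 in WT and 11.68 to 11.74 in E2f8 KO, and over 12.33 to 12.53 in Rb KO and 11.98 to 12.23 in DKO. It was thus below WT in every Rb KO and DKO array, but lowest under a label that does not name it. Against WT it differed by -0.41 in Rb KO (limma, adjusted p = 0.394) and by -0.70 in DKO (adjusted p = 0.000483). The sources used here do not place either probe set relative to the deleted part. Replicate 3 of both E2f8 KO and DKO had low Xist, the transcript that silences an X chromosome (5.22 and 3.99), apart from the other 10 arrays. Erythroid genes averaged 12.21 to 12.99 on the log2 scale in every array (14 of 16 listed genes measured). The sources used here name no batch or scan time.

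B lymphocyte genes were plainly present in the fraction labelled WT, remained so in Rb KO, and were low in both groups that carry the E2f8 KO label. The mean log2 signal over the 34 genes was 9.82, 10.61 and 9.32 in WT, 8.71, 10.95 and 10.90 in Rb KO, 7.06, 7.27 and 7.35 in E2f8 KO and 6.21, 6.37 and 6.88 in DKO. Every array of E2f8 KO and DKO lay below every array of WT and Rb KO, and the highest DKO array lay below the lowest of E2f8 KO. In bulk RNA of this kind, fewer B cells in the fraction and less RNA per B cell cannot be told apart.

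**Figure D1:**
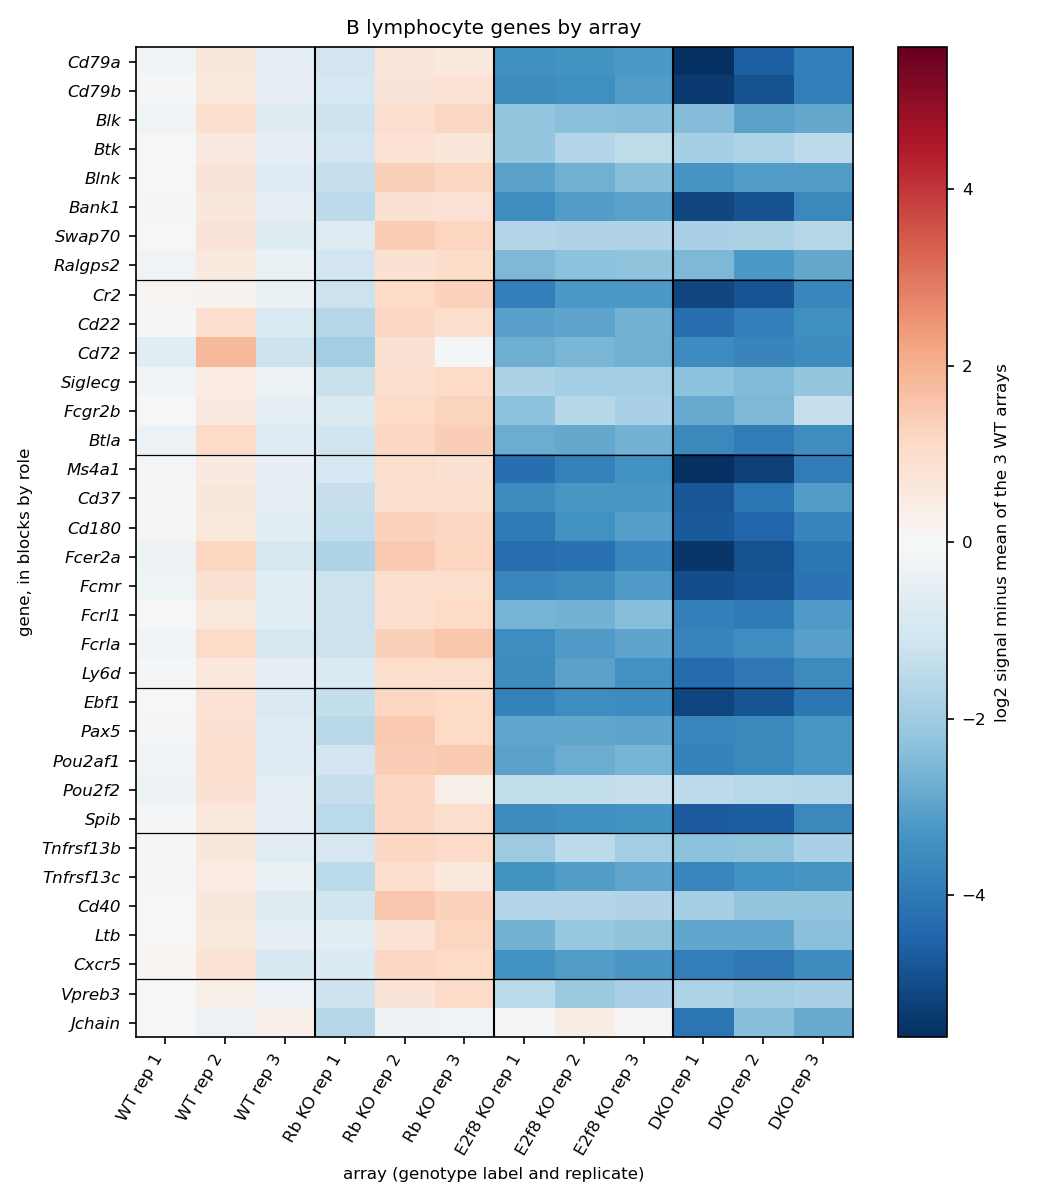
Log2 signal of each of the 34 B lymphocyte genes (rows, in blocks by role) in each of the 12 arrays (columns), as the difference from the mean of the 3 WT arrays; blue is lower and red higher. All genes but Jchain in the bottom row are blue in the 3 E2f8 KO arrays, all 34 are blue in DKO, and replicate 1 of Rb KO is blue throughout, unlike replicates 2 and 3.

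Counted over all genes with limma and Benjamini-Hochberg adjustment at an adjusted p under 0.05, 32 of the 34 genes fell in E2f8 KO against WT, where 14.2% of all 12980 genes fell and 26.1% changed in either direction. The median log2 difference of the 34 genes was -2.84, against 0.06 for all genes tested. In DKO against WT all 34 fell, beside 17.6% of all genes, with a median of -3.57. Against Rb KO, DKO was lower in all 34 as well (17.6% of all genes), with a median of -3.96. These comparisons share arrays and are given side by side, not as independent evidence. The members were listed with earlier results of these data known, so the counts describe them and give no test of the group.

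Between the remaining pairs of labels the counts were low or ran the other way. No member changed in Rb KO against WT, where limma called 0.0077% of all genes. Rb KO was higher than E2f8 KO in 33 of 34, with 15.6% of all genes higher. In DKO against E2f8 KO, 1 member fell beside 0.647% of all genes. The difference was -5.22 for Ms4a1 and -1.61 for Pou2f2, the ends of the range, in DKO against Rb KO. There the Pou2f2 call was lost without replicate 2 or 3 of Rb KO, or 2 of DKO (adjusted p = 0.0932, 0.0669 and 0.0521), and with only those 6 arrays in the fit (0.0584). From E2f8 KO to Rb KO, differences reached from 1.42 for Pou2f2 (adjusted p = 0.0453, a call lost in 13 alternative fits with the same threshold, among them 9 of the 12 without 1 array) to 4.35 for Fcer2a, with Jchain at -0.83 outside the call (adjusted p = 0.172). The interaction, which asks whether the E2f8 label shifts a gene differently with and without the Rb label, called no member, and 0.077% of all genes.

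**Figure D2:**
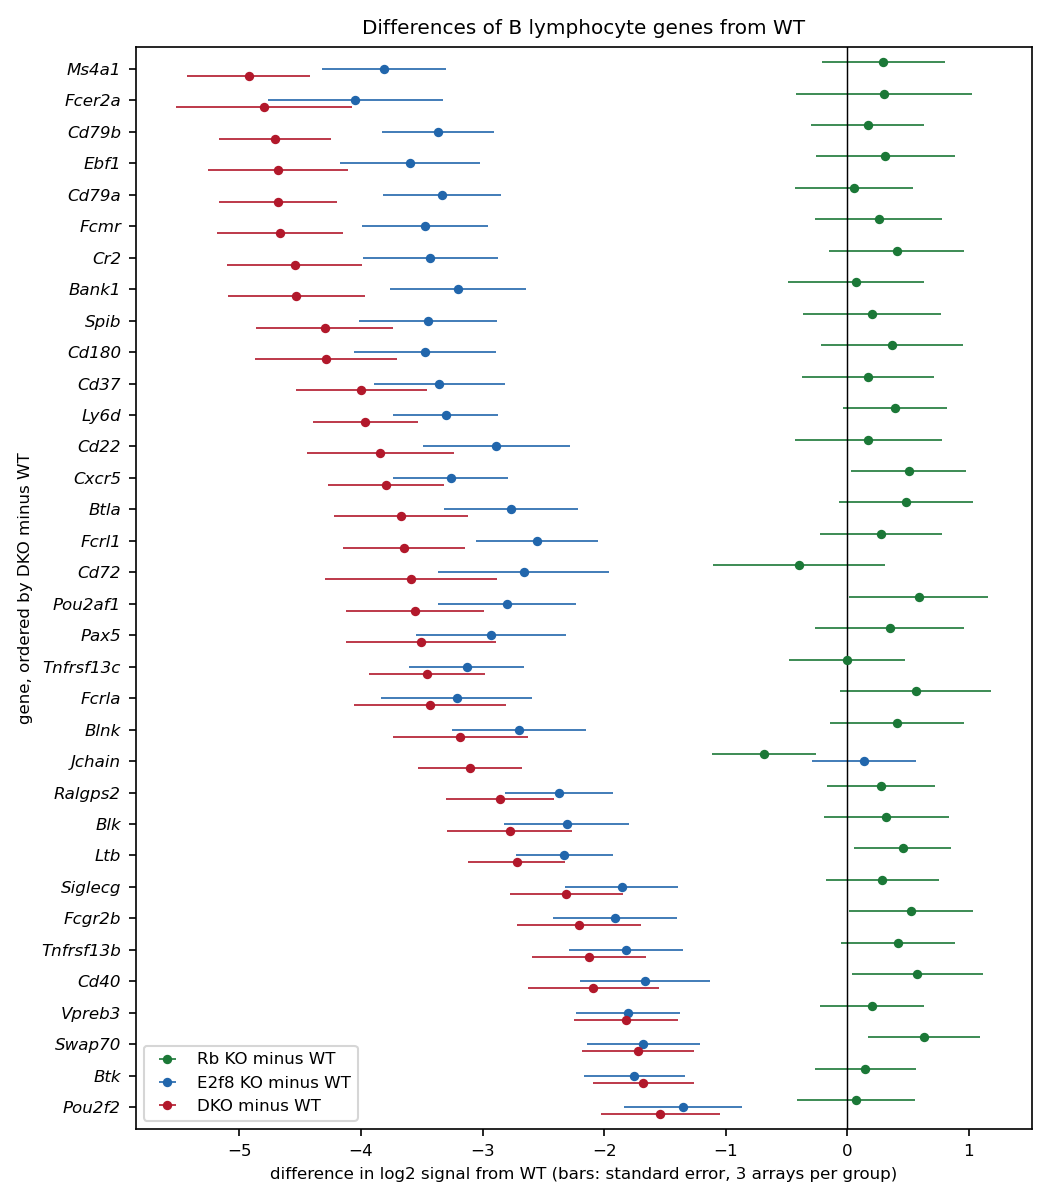
Difference in log2 signal from WT for each of the 34 genes in Rb KO (green), E2f8 KO (blue) and DKO (red), with bars of 1 standard error from the fit (3 arrays per group), ordered by the DKO difference. Blue and red points lie left of 0 except the blue point of Jchain, and green points run from -0.69 to 0.63.

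The antigen receptor and its signalling parts were represented by 8 genes, and all 8 fell in E2f8 KO against WT (median -2.54) and in DKO against WT (median -3.02). Among all genes tested, 14.2% and 17.6% fell in these comparisons. Cd79b, one of the paired signalling chains of the receptor (probe set 10392142), stood at 12.48, 13.20 and 12.12 in the WT arrays, 11.62, 13.32 and 13.37 in Rb KO, 9.06, 9.17 and 9.48 in E2f8 KO and 7.23, 7.72 and 8.74 in DKO. The 6 arrays with the E2f8 KO or DKO label lay below the 6 others, well apart, and DKO lay below E2f8 KO with no overlap. Cd79b fell by 3.37 ± 0.46 (standard error, 3 arrays per label, adjusted p = 0.000708) in E2f8 KO against WT, which is 10.3-fold, and by 4.71 ± 0.46 (adjusted p = 1.98e-05) in DKO against WT. Cd79a, its partner chain, stood at 12.01, 12.79 and 11.64 in the WT arrays, 11.06, 12.83 and 12.70 in Rb KO, 8.71, 8.81 and 8.91 in E2f8 KO and 6.53, 7.56 and 8.30 in DKO. It had the same order of groups, and fell by 3.34 ± 0.48 and 4.68 ± 0.48 in the same comparisons.

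Downstream of the receptor, Blnk is the adaptor on which the signalling complex assembles, Btk the kinase that activates phospholipase C and Blk a Src family kinase. Blnk stood at 9.43, 10.21 and 8.75 in the WT arrays, 8.17, 10.81 and 10.64 in Rb KO, 6.48, 6.76 and 7.06 in E2f8 KO and 6.17, 6.33 and 6.34 in DKO. Its lowest WT array lay above every E2f8 KO and DKO array, and it fell by 2.70 ± 0.55 in E2f8 KO and by 3.18 ± 0.55 in DKO. Btk, which macrophages also express, stood at 8.10, 8.64 and 7.67 in the WT arrays, 7.08, 8.95 and 8.83 in Rb KO, 5.95, 6.47 and 6.72 in E2f8 KO and 6.28, 6.42 and 6.69 in DKO. Here E2f8 KO and DKO overlapped, and the falls against WT were smaller, at 1.75 ± 0.42 and 1.68 ± 0.42. Blk fell by 2.31 ± 0.51 and 2.78 ± 0.51.

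The adaptor Bank1, which couples the receptor to calcium release, showed one of the wider gaps between both E2f8-labelled groups. It stood at 11.03, 11.78 and 10.59 in the WT arrays, 9.66, 12.001 and 11.95 in Rb KO, 7.65, 7.99 and 8.15 in E2f8 KO and 6.01, 6.26 and 7.53 in DKO. Replicate 3 of DKO lay closer to E2f8 KO than the other DKO arrays did, without reaching it. Bank1 fell by 3.20 ± 0.56 in E2f8 KO (adjusted p = 0.00245) and by 4.53 ± 0.56 in DKO (adjusted p = 8.49e-05). Swap70, a regulator of the actin cytoskeleton in activated B cells, fell by 1.68 ± 0.46 and 1.72 ± 0.46, and Ralgps2, a Ral exchange factor, by 2.37 ± 0.44 and 2.86 ± 0.44. Without replicate 2 of WT the Swap70 differences were -1.32 (adjusted p = 0.0928) and -1.37 (adjusted p = 0.0537), and its E2f8 KO call was also lost without replicate 1, 2 or 3 of E2f8 KO (adjusted p = 0.0557, 0.0558 and 0.0522).

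The stretches just upstream of the transcription starts are shown for those members that hold a word bound by B lineage factors. Their part in the member results was not tested. RefSeq promoters on GRCm38.p6, of 250 bases before to 50 after the start, were matched by symbol for 28 of the 34 genes (34 windows, since some genes have several starts), and Cd79b, Blk, Ms4a1, Ly6d, Cd40 and Cxcr5 were not matched. Each window was searched on both strands for the octamer ATGCAAAT, a site of Pou2f2 and its cofactor Pou2af1, for the palindrome of Ebf1, TCCC and GGGA set 2 bases apart, for GAGGAAGT, a site of PU.1 and Spib, and for AGATAA of the erythroid GATA factors. No word overlaps another in the stretches printed.

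The octamer was in 2 of the 34 windows (5.88%), against 1.74% of all 32851 windows. The Ebf1 word was in 1 (2.94% against 0.904%) and the PU.1 and Spib word in 4 (11.8% against 3.2%). The GATA word was in 1 window, that of Fcrl1 (2.94% against 11.2%). A match describes these letters in this window and is no evidence of binding.

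The octamer, in capitals, lies upstream of Vpreb3 (chr10:75948210-75948299, plus strand) and of Blnk (chr19:40994299-40994396, minus strand), in both as its reverse complement, first base 45 and 130 bases before the start.
Vpreb3: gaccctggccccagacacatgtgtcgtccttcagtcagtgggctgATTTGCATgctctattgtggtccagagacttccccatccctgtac
Blnk: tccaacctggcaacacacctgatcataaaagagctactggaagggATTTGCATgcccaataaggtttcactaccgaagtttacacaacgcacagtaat

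The Ebf1 word, in capitals, lies 49 bases before the start of Cd22 (chr7:30879029-30879122, minus strand).
Cd22: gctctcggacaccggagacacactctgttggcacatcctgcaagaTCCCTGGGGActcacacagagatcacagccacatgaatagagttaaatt

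The PU.1 and Spib word, in capitals, lies 15 bases before the start of Fcrl1 (chr3:87376327-87376386, plus strand), 49 before Cd72 (chr4:43454627-43454720, minus strand), 25 before Cd37 (chr7:45238840-45238909, minus strand) and 18 before Btla (chr16:45224274-45224336, plus strand). It is read as its reverse complement except in Btla. All stretches are written 5′ to 3′ on the strand of the gene.
Fcrl1: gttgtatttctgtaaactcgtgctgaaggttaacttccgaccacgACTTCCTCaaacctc
Cd72: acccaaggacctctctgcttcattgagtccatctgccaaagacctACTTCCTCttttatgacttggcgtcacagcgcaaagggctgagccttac
Cd37: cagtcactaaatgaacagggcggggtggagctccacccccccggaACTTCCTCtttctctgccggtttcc
Btla: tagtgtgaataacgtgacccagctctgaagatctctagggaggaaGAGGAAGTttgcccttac

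Co-receptors and inhibitory receptors numbered 6, and all 6 fell in E2f8 KO (median -2.71) and in DKO (median -3.63) against WT. The shares of all genes that fell were 14.2% and 17.6%. Cr2 encodes complement receptor 2, which lowers the threshold of the antigen receptor and is abundant on marginal zone B cells. It stood at 10.31, 10.37 and 9.80 in the WT arrays, 8.94, 11.29 and 11.45 in Rb KO, 6.31, 6.92 and 6.95 in E2f8 KO and 5.05, 5.29 and 6.49 in DKO. Cr2 had the tightest WT arrays of all members, with a range of 0.57, and fell by 3.43 ± 0.55 (adjusted p = 0.00158) in E2f8 KO and by 4.55 ± 0.55 (adjusted p = 7.48e-05) in DKO. Replicate 1 of E2f8 KO lay under the highest DKO array.

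Cd22, a sialic acid binding inhibitor of the receptor whose upstream stretch is printed above, stood at 9.93, 10.95 and 9.13 in the WT arrays, 8.41, 11.15 and 10.97 in Rb KO, 6.96, 7.03 and 7.35 in E2f8 KO and 5.78, 6.15 and 6.55 in DKO. All DKO arrays were below all E2f8 KO arrays, which were below all others, and Cd22 fell by 2.89 ± 0.61 and 3.84 ± 0.61 against WT. Btla, an inhibitory receptor shared with T cells, stood at 8.03, 9.43 and 7.66 in the WT arrays, 7.27, 9.52 and 9.77 in Rb KO, 5.60, 5.50 and 5.73 in E2f8 KO and 4.76, 4.46 and 4.89 in DKO. Its E2f8 KO and DKO arrays all lay under the level of 5.84 set by the filter, so its fall of 3.67 ± 0.55 in DKO runs into low signal.

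Cd72, an inhibitory receptor that binds Cd100, had the widest WT spread of the group. It stood at 8.29, 10.77 and 7.77 in the WT arrays, 6.98, 9.80 and 8.85 in Rb KO, 6.18, 6.40 and 6.26 in E2f8 KO and 5.40, 5.23 and 5.43 in DKO. Replicate 2 of WT stood well above replicates 1 and 3. Cd72 fell by 2.66 ± 0.70 (adjusted p = 0.0157) in E2f8 KO and by 3.59 ± 0.70 in DKO, and without that WT array the E2f8 KO difference was -1.75 (adjusted p = 0.0617). Its call was also lost without replicate 1 of E2f8 KO (adjusted p = 0.0518). The Fc receptor Fcgr2b, which brakes B cells through bound antibody and is also found on macrophages, fell by 1.91 ± 0.51 and 2.21 ± 0.51. Siglecg, a sialic acid binding inhibitor of B1 cells, fell by 1.86 ± 0.47 and 2.31 ± 0.47. Without replicate 2 of WT their E2f8 KO differences were -1.67 (adjusted p = 0.0740) and -1.62 (adjusted p = 0.0606), and the Fcgr2b call was also lost without replicate 1 of E2f8 KO (adjusted p = 0.0659).

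The other surface proteins, 8 genes, had the lowest medians of all roles: -3.41 in E2f8 KO and -4.14 in DKO against WT. All 8 fell in both comparisons, beside 14.2% and 17.6% of all genes. Ms4a1 encodes CD20, the classical B cell surface antigen (probe set 10466172). It stood at 11.08, 11.64 and 10.70 in the WT arrays, 10.19, 12.13 and 11.99 in Rb KO, 6.90, 7.36 and 7.72 in E2f8 KO and 5.56, 5.89 and 7.20 in DKO. WT and Rb KO stayed high in every array, and replicate 3 of DKO overlapped with E2f8 KO while replicates 1 and 2 did not. Ms4a1 fell by 3.81 ± 0.51 (14.0-fold, adjusted p = 0.000630) in E2f8 KO and by 4.92 ± 0.51 (30.4-fold, adjusted p = 2.83e-05) in DKO, the lowest DKO difference of the 34 genes.

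Fcer2a, the low-affinity IgE receptor CD23 of follicular B cells, stood at 10.19, 11.70 and 9.58 in the WT arrays, 8.77, 11.94 and 11.68 in Rb KO, 6.23, 6.29 and 6.82 in E2f8 KO and 5.04, 5.61 and 6.42 in DKO. It fell by 4.05 ± 0.72 (adjusted p = 0.00269) in E2f8 KO, the lowest E2f8 KO difference of the 34, and by 4.80 ± 0.72 in DKO, where its lower arrays ran into low signal. Fcmr, the IgM Fc receptor, stood at 11.49, 12.59 and 11.06 in the WT arrays, 10.52, 12.69 and 12.70 in Rb KO, 8.04, 8.14 and 8.53 in E2f8 KO and 6.72, 6.86 and 7.55 in DKO. The groups separated in the order DKO, E2f8 KO and then the other labels, with no overlap, and Fcmr fell by 3.47 ± 0.52 and 4.67 ± 0.52 against WT.

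Cd37, a tetraspanin of mature B cells, stood at 11.75, 12.43 and 11.25 in the WT arrays, 10.51, 12.72 and 12.70 in Rb KO, 8.27, 8.54 and 8.55 in E2f8 KO and 7.03, 7.72 and 8.69 in DKO. Replicate 3 of DKO lay above all E2f8 KO arrays, and Cd37 fell by 3.36 ± 0.54 and 3.997 ± 0.54 against WT. Cd180, a Toll-like receptor homologue, fell by 3.48 ± 0.58 and 4.29 ± 0.58, and Ly6d, a marker of B lineage commitment, by 3.31 ± 0.43 and 3.96 ± 0.43. Among the Fc receptor-like genes, Fcrl1, which activates B cells, fell by 2.55 ± 0.50 and 3.65 ± 0.50, and Fcrla, which stays inside the cell, by 3.21 ± 0.62 and 3.43 ± 0.62. Between DKO and E2f8 KO, Fcrl1 differed by -1.10 ± 0.50 and Fcrla by -0.22 ± 0.62, and neither passed the test (adjusted p = 0.271 and 0.870).

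Transcription factors and cofactors numbered 5. In E2f8 KO 4 of them fell (median -2.93) and in DKO all 5 fell (median -3.56) against WT, beside 14.2% and 17.6% of all genes. Ebf1, which with Pax5 commits cells to the B lineage, stood at 10.49, 11.29 and 9.64 in the WT arrays, 9.15, 11.61 and 11.59 in Rb KO, 6.70, 7.002 and 6.94 in E2f8 KO and 5.33, 5.63 and 6.41 in DKO. DKO lay below E2f8 KO in every array, and Ebf1 fell by 3.60 ± 0.57 (adjusted p = 0.00150) and 4.69 ± 0.57 (adjusted p = 7.82e-05) against WT. Pax5, the guardian of B cell identity, stood at 10.05, 11.03 and 9.42 in the WT arrays, 8.60, 11.65 and 11.30 in Rb KO, 7.23, 7.25 and 7.22 in E2f8 KO and 6.52, 6.56 and 6.90 in DKO. Its E2f8 KO arrays lay within 0.03 of each other, the narrowest range of any member there, and Pax5 fell by 2.93 ± 0.61 and 3.51 ± 0.61.

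Spib, an Ets factor needed for B cell responses, fell by 3.45 ± 0.57 in E2f8 KO and 4.30 ± 0.57 in DKO, and the octamer cofactor Pou2af1 by 2.80 ± 0.57 and 3.56 ± 0.57. Pou2f2, the octamer factor Oct2, was the exception, at 7.94, 9.10 and 7.67 in the WT arrays, 6.95, 9.41 and 8.55 in Rb KO, 6.87, 6.85 and 6.93 in E2f8 KO and 6.76, 6.69 and 6.64 in DKO. Replicate 1 of Rb KO lay next to the E2f8 KO arrays, and all WT arrays lay above them. The difference of Pou2f2 in E2f8 KO was -1.35 ± 0.49 (adjusted p = 0.0572), which missed the threshold, with a 95% interval of -2.40 to -0.30. It passed in 7 alternative fits, at an adjusted p from 0.000117 with array weights to 0.0495 with the lowest 60% of probe sets removed. In DKO it fell by 1.54 ± 0.49 (adjusted p = 0.0237), and without replicate 2 of WT that difference was -1.11 (adjusted p = 0.116). That call was also lost without replicate 1, 2 or 3 of DKO (adjusted p = 0.0509, 0.0602 and 0.0568).

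Tumour necrosis factor (TNF) family members and the homing receptor, 5 genes, fell in E2f8 KO (median -2.33) and in DKO (median -2.72), 5 of 5 in each. These counts stand beside 14.2% and 17.6% of all genes. Tnfrsf13c encodes the BAFF receptor that keeps mature B cells alive. It stood at 11.52, 12.02 and 11.18 in the WT arrays, 10.05, 12.49 and 12.16 in Rb KO, 8.21, 8.43 and 8.67 in E2f8 KO and 7.89, 8.18 and 8.27 in DKO. E2f8 KO and DKO overlapped, both far below the rest, and Tnfrsf13c fell by 3.13 ± 0.47 (adjusted p = 0.00121) and 3.46 ± 0.47 (adjusted p = 0.000164) against WT. Cxcr5, the receptor that guides B cells into follicles, stood at 9.42, 10.09 and 8.40 in the WT arrays, 8.53, 10.46 and 10.44 in Rb KO, 5.91, 6.18 and 6.05 in E2f8 KO and 5.44, 5.31 and 5.79 in DKO. Its DKO arrays lay below its E2f8 KO arrays, and it fell by 3.26 ± 0.48 and 3.79 ± 0.48.

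Ltb, a lymphotoxin that shapes lymphoid tissue and is also made by T cells, fell by 2.33 ± 0.40 and 2.72 ± 0.40. Tnfrsf13b, the TACI receptor of marginal zone B cells, fell by 1.82 ± 0.47 and 2.13 ± 0.47. Cd40, which receives help from T cells and is shared with macrophages and dendritic cells, stood at 8.61, 9.21 and 7.87 in the WT arrays, 7.45, 10.09 and 9.88 in Rb KO, 6.92, 6.91 and 6.87 in E2f8 KO and 6.68, 6.34 and 6.40 in DKO. It fell by 1.66 ± 0.54 (adjusted p = 0.0374) in E2f8 KO, a call that depended on single arrays: without replicate 2 of WT the difference was -1.34 (adjusted p = 0.153), and without replicate 1 of WT, 1, 2 or 3 of E2f8 KO, or 2 of DKO, it missed the threshold as well. In DKO it fell by 2.09 ± 0.54 (adjusted p = 0.00816). For Tnfrsf13b the E2f8 KO difference without replicate 2 of WT was -1.50 (adjusted p = 0.0700), and for Btk -1.50 (adjusted p = 0.0509). The Tnfrsf13b call was also lost without replicate 1 of E2f8 KO (adjusted p = 0.0536).

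**Figure D3:**
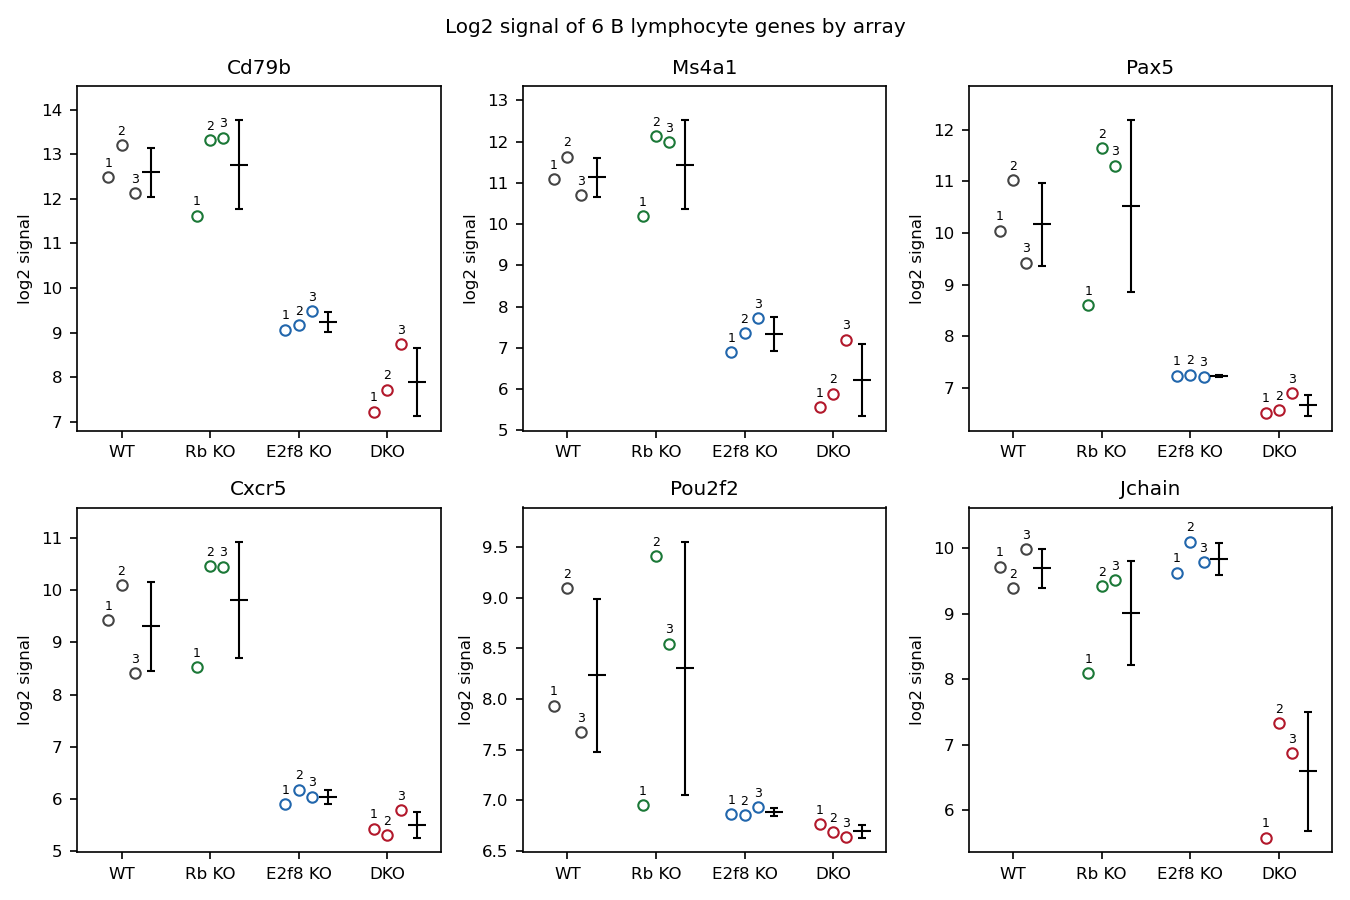
Log2 signal of 6 B lymphocyte genes by array, with points numbered by replicate and a bar for the mean ± SD of the 3 arrays of each label (axes do not start at 0). Cd79b, Ms4a1, Pax5, Cxcr5 and Pou2f2 are low in E2f8 KO and DKO, whereas Jchain is as high in E2f8 KO (9.62 to 10.10) as in WT (9.39 to 9.98) and low in DKO alone (5.58 to 7.33).

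Immunoglobulin assembly was represented by Vpreb3 and Jchain, which behaved differently. Vpreb3, a chaperone-like protein of the immunoglobulin light chain pathway, stood at 8.27, 8.59 and 7.91 in the WT arrays, 7.10, 8.96 and 9.32 in Rb KO, 6.73, 6.19 and 6.45 in E2f8 KO and 6.53, 6.32 and 6.46 in DKO. E2f8 KO and DKO overlapped fully, and Vpreb3 fell by 1.80 ± 0.43 (adjusted p = 0.00964) and 1.82 ± 0.43 (adjusted p = 0.00477) against WT.

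Jchain (probe set 10531126) stood at 9.72, 9.39 and 9.98 in the WT arrays, 8.09, 9.42 and 9.51 in Rb KO, 9.62, 10.10 and 9.78 in E2f8 KO and 5.58, 7.33 and 6.87 in DKO. The E2f8 KO arrays overlapped with WT, the Rb KO arrays reached from below WT into it, and all 3 DKO arrays lay below all 9 others. In E2f8 KO against WT Jchain differed by 0.14 ± 0.43 (adjusted p = 0.835), with a 95% interval of -0.79 to 1.06, and by -0.016 without replicate 2 of WT. In Rb KO against WT it differed by -0.69 ± 0.43, with an interval of -1.61 to 0.24 (adjusted p = 0.9998). In DKO it fell by 3.10 ± 0.43 against WT (adjusted p = 0.000166), by 2.41 ± 0.43 against Rb KO (adjusted p = 0.00103) and by 3.24 ± 0.43 against E2f8 KO (adjusted p = 0.00193), which is 9.45-fold.

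Jchain was the 1 member called between DKO and E2f8 KO. Its interaction was -2.55 ± 0.61 (adjusted p = 0.273), so that a different shift under the E2f8 label with and without the Rb label was not shown. The interaction was -2.87 with array weights (adjusted p = 0.0165) and -3.01 without replicate 1 of Rb KO (adjusted p = 0.0189). The DKO arrays themselves differed widely for Jchain, with replicate 1 below the filter level and replicates 2 and 3 above it.

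Plasma cells also express Jchain, and genes of that cell type were counted too. Of 8 listed and measured genes, 2 fell in E2f8 KO against WT (Ell2 and Mzb1) and 3 in DKO against WT (also Prdm1). Of all genes 14.2% and 17.6% fell in these comparisons. Between DKO and E2f8 KO limma called 0 of the 8, beside 2.37% of all genes, and the median difference was -0.25. Mzb1, a chaperone of marginal zone and plasma cells, stood at 8.86, 9.43 and 7.93 in the WT arrays, 7.58, 9.41 and 9.94 in Rb KO, 6.89, 6.51 and 6.65 in E2f8 KO and 6.31, 6.17 and 6.47 in DKO. Like most members it was low in E2f8 KO, and it fell by 2.06 ± 0.49 and 2.42 ± 0.49. Ell2, an elongation factor that favours secreted immunoglobulin, fell by 1.41 ± 0.16 and 1.65 ± 0.16, and Prdm1, the master regulator of plasma cells, by 0.88 ± 0.25 in DKO. In Rb KO Ell2 stood at 12.14, 11.74 and 12.14, so replicate 1 was not low for it as it was for the members. Tnfrsf17, the plasma cell survival receptor, differed by -0.30 ± 0.13 between DKO and E2f8 KO (adjusted p = 0.260). Of 6 listed immunoglobulin constant region genes only the heavy chain gene Ighm was measured, since the others had no probe set of a single symbol. Ighm had 3 such probe sets, of which that with the highest mean is given. It stood at 9.85, 10.98 and 9.61 in the WT arrays, 8.58, 11.27 and 11.08 in Rb KO, 8.83, 8.58 and 8.81 in E2f8 KO and 6.98, 7.64 and 7.94 in DKO. It differed by -1.41 ± 0.58 in E2f8 KO against WT (adjusted p = 0.0895) and fell by 2.62 ± 0.58 in DKO (adjusted p = 0.00321).

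Rb KO against WT showed no change in any of the 34 genes at an adjusted p under 0.05, and 0 at an unadjusted p under 0.05, where limma had 4.6% of all genes. The median difference was 0.30, against 0.04 over all genes, with 31 genes above 0 and 3 below. The differences ran from -0.69 for Jchain to 0.63 for Swap70. For Cd79b the difference was 0.17 ± 0.46 with a 95% interval of -0.83 to 1.16, and for Ms4a1 0.30 ± 0.51 with -0.80 to 1.39. Intervals of this width do not show that both labels gave equal levels.

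Replicate 1 of Rb KO was the lowest of its group in all 34 genes (38.5% of all genes were lowest there), with a median difference of -2.23 from the mean of replicates 2 and 3, from -3.04 for Fcer2a to -1.37 for Jchain. Without it, 3 members rose in Rb KO against WT: Swap70 by 1.31, Siglecg by 1.05 and Cd40 by 1.42 (adjusted p = 0.0481, 0.0454 and 0.0410), where 0.339% of all genes rose in the same fit. Without replicate 2 or 3 of Rb KO the median difference turned to -0.060 and -0.094. The erythroid mean of that array was 12.86, beside 12.55 and 12.21 in replicates 2 and 3, its T cell mean 6.84 beside 7.61 and 7.48, and its macrophage mean 8.81 beside 8.90 and 8.60. Their part in the result was not tested.

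Single arrays differed in the same direction across the members within other groups too. In WT, replicate 2 was highest in 33 of 34 genes (29.8% of all genes) and replicate 3 lowest in 33 (45.8% of all genes). In DKO, replicate 3 was highest in 28 (35.1% of all genes) and replicate 1 lowest in 23 (46.4%). In E2f8 KO, replicate 3 was highest in 20 (33.2%) and replicate 1 lowest in 25 (37.5%). The median range of a member over the 3 arrays of a group was 1.23 in WT, 2.34 in Rb KO, 0.41 in E2f8 KO and 0.72 in DKO, beside 0.47, 0.41, 0.22 and 0.35 for all genes. Replicate 3 of DKO is one of both arrays with low Xist, and also held the highest granulocyte mean (10.63, beside 6.94 and 8.23).

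Without both low-Xist arrays, a choice made after the data were seen, 28 of 34 members fell in E2f8 KO against WT (8.98% of all genes) and 33 in DKO against WT (14.3%), and the median differences were -2.91 and -3.67. In DKO against E2f8 KO 1 member fell (0.131% of all genes), with a median of -0.85.

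Between DKO and E2f8 KO the members other than Jchain lay lower without passing the test. The median difference was -0.65, against -0.02 over all genes, and 33 of 34 genes were below 0, with Btk the exception at 0.08. In 20 of 34 genes every DKO array lay below every E2f8 KO array, where 17% of all genes did so. At an unadjusted p under 0.05 there were 7 members, beside 18.1% of all genes. The largest differences after Jchain were those of Cd79a, -1.35 ± 0.48 (adjusted p = 0.169), Cd79b, -1.34 ± 0.46 (adjusted p = 0.153), and Bank1, -1.33 ± 0.56 (adjusted p = 0.242). The count was higher in 3 other fits, as was the share of all genes that fell: 11 members when only these 6 arrays were used (3.2% of all genes), 9 with array weights (8.14%) and 6 without replicate 1 of Rb KO (1.58%). In DKO, 7 members had a mean and 12 at least 1 array under 5.84. Those 7 were Cr2, Cd72, Btla, Fcer2a, Fcrl1, Ebf1 and Cxcr5, so the sizes of their DKO falls run into low signal.

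In the interaction all 34 members were below 0, with a median of -1.02 against 0.001 for all genes, and none passed the test (0 of 34; at an unadjusted p under 0.05 there were 2, Cd79b and Jchain, beside 5.7% of all genes). For Cd79b it was -1.51 ± 0.65 (adjusted p = 0.847). Without replicate 1 of Rb KO, 3 members passed, beside 0.378% of all genes: Siglecg at -1.50, Fcrl1 at -2.12 and Jchain at -3.01.

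Other genes of the same pathway, on lists made for this comparison with earlier results known, were counted beside the members. Of 21 further antigen receptor signalling genes 18 were measured, of which 14 fell and 0 rose in E2f8 KO and 16 fell and 2 rose in DKO against WT. Their medians were -2.04 and -2.20. Of all genes, 14.2% fell and 11.9% rose in E2f8 KO, and 17.6% fell and 20.6% rose in DKO, against WT. Ptprc, the CD45 phosphatase of all white blood cells, fell by 2.74 ± 0.58 and 3.80 ± 0.58, and Rasgrp3, which activates Ras below the receptor, by 3.20 ± 0.61 and 3.79 ± 0.61. Of 10 further transcription factors of B cells, 8 fell and 1 rose in each comparison. Ikzf3, known as Aiolos, fell by 3.21 ± 0.64 and 4.17 ± 0.64, while Tcf3, an E protein that many cell types express, rose by 0.65 ± 0.15 and 0.97 ± 0.15.

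Lists of B cell subsets were also counted in E2f8 KO and DKO against WT, where 14.2% and 17.6% of all genes fell. Follicular homing genes fell in 5 and 6 of 7, and S1pr1, which lets lymphocytes leave tissues and also serves other cells, fell by 3.41 ± 0.53 and 4.06 ± 0.53. Marginal zone and B1 genes fell in 6 of 8 in both, with S1pr3, which holds B cells in the marginal zone, at differences of -2.45 ± 0.44 and -2.82 ± 0.44. Of 9 listed precursor B cell genes 5 were measured, and the others were removed by the filter on low signal. In both comparisons 2 of the 5 fell, and these were Il7r and Lef1, which T cells express as well. The surrogate light chain genes Igll1 and Vpreb2 differed by -0.10 ± 0.13 and -0.10 ± 0.15 in DKO (adjusted p = 0.606 and 0.653). Both were low in every array, at 6.41 to 6.75 and 6.25 to 6.94, beside array medians of 6.22 to 6.35. Little fall could therefore show in them. Of the 7 listed germinal centre genes Bcl6 and S1pr2 were measured, and limma called neither in either comparison (0 of 2). With 5 and 2 genes measured, the precursor and germinal centre counts cannot be told apart from the shares of all genes.

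**Figure D4:**
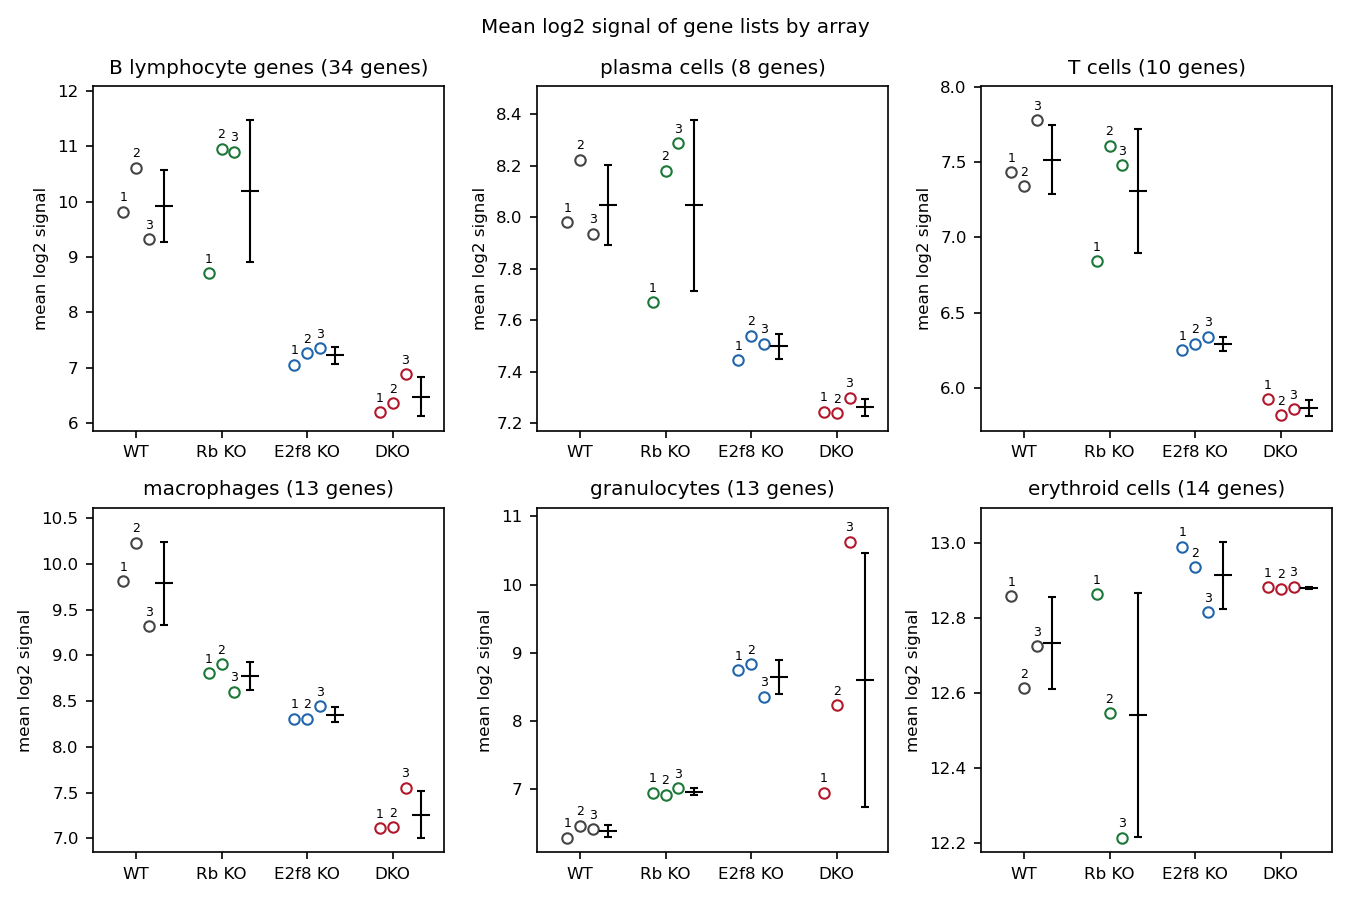
Mean log2 signal over the measured genes of 6 lists by array, with points numbered by replicate and a bar for the mean ± SD of the 3 arrays of each label (axes do not start at 0). B lymphocyte, T cell and macrophage means are lower in E2f8 KO and DKO than in WT, granulocyte means are higher, and erythroid means stay between 12.21 and 12.99.

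Markers of other spleen cells moved in the same arrays, and their part in the member results was not tested. Of all genes, 14.2% fell and 11.9% rose in E2f8 KO against WT, and 17.6% fell and 20.6% rose in DKO against WT. T cell genes fell in 8 and 10 of 10 in E2f8 KO and DKO against WT, and Cd3g, a chain of the T cell receptor complex, fell by 2.51 ± 0.29 and 3.32 ± 0.29. Their summed linear signal was 2279 to 3046 in WT, 812 to 906 in E2f8 KO, 1326 to 2913 in Rb KO and 608 to 674 in DKO. Macrophage genes fell in 11 and 13 of 13, and Csf1r, the receptor for their growth factor, fell by 2.004 ± 0.25 and 3.63 ± 0.25. Their sums were 12091 to 23721 in WT, 5503 to 5977 in E2f8 KO, 7288 to 9872 in Rb KO and 2264 to 3143 in DKO. Dendritic cell genes fell in 4 and 5 of 6 and natural killer cell genes in 2 and 3 of 3. Of the natural killer cell list 8 genes were listed, and those not measured were removed by the filter on low signal. Granulocyte genes rose in 9 and 10 of 13, with sums of 1439 to 1538 in WT, 8431 to 12508 in E2f8 KO, 2479 to 3467 in Rb KO and 2695 to 40031 in DKO, and megakaryocyte genes had 0 of 7 called in E2f8 KO, and 1 higher and 1 lower in DKO.

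The summed linear signal of the 34 genes was 33252 to 78883 in WT, 5758 to 7145 in E2f8 KO, 21356 to 98150 in Rb KO and 2798 to 4801 in DKO. The macrophage list differed from the members in Rb KO, where its median against WT was -1.04 (0 of 13 called) while that of the members was 0.30. It also differed between DKO and E2f8 KO, where 6 of 13 macrophage genes fell, beside 0.647% of all genes. The difference between both lists was not tested. Erythroid genes summed to 107074 to 119431 in WT, 113949 to 127115 in E2f8 KO, 86951 to 120310 in Rb KO and 116956 to 118227 in DKO. In DKO against WT 3 of 14 rose and 2 fell, beside 20.6% and 17.6% of all genes.

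Genes outside the list whose profile over the 12 arrays was closest to the mean profile of the members were ranked by the root mean square difference after centring each gene on its own mean. The closest were Tlr9, the receptor for microbial DNA in B cells and some dendritic cells (0.118), then Slamf6, Sting1, Napsa, Foxo1, Shisa5, Themis2, P2ry10b, Gpr18 and Mef2c (0.207), beside a median of 1.76 over all genes tested. Foxo1 and Mef2c encode factors known in B cells, and Slamf6 and Gpr18 surface receptors of lymphocytes. Tlr9 stood at 10.52, 11.20 and 10.04 in the WT arrays, 9.19, 11.43 and 11.69 in Rb KO, 7.45, 7.80 and 7.995 in E2f8 KO and 6.78, 7.11 and 7.46 in DKO. It followed the members array by array, with replicate 1 of Rb KO low and DKO below E2f8 KO in the mean. Among the members, Fcrl1 (0.167) and Blnk (0.196) lay closest to the mean profile, and Pou2f2 (0.921) and Jchain (1.50) farthest.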

How the data were processed

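Gene expression was measured on 12 Affymetrix arrays, 3 per genotype label. Per the values themselves, the authors deposited log2 signal (1.07 to 14.8). MAS5 is named, without a version, per the submitters' processing notes, and the sources used here state neither background correction nor between-array normalization. Array medians lay between 6.22 and 6.35, and no further normalization or pseudocount was applied. The number of arrays limits the precision.

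Among 35557 probe sets, 1 gene symbol was listed for 21789, several for 1621 and none for 12147. The lowest 40% by mean (14223, below 5.84) were removed. Symbols were updated by gene number (21698 matched). Probe sets of several symbols, such as 2 that name Ralgps2, were left out, and the probe set with the highest mean stood for a gene, which left 12980 genes. Limma 3.58.1 in R 4.3.3 was fitted with 1 coefficient per label over all 12 arrays (8 residual degrees of freedom, empirical Bayes with a mean trend). Tests were two-sided, with Benjamini-Hochberg adjustment over all genes within each of 7 comparisons and a threshold of 0.05. Intervals of 95% come from the same fit.

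The 34 members and the other lists were chosen with earlier results of these data known, so no test of a list is given. Members could all be named. At most 4 genes per other list were named (the smallest p in DKO against WT), and outside them the 10 genes closest to the mean profile. Summed linear signals are sums of 2 raised to the log2 value. The fit was tested on simulated data with independent noise for each gene, where it recovered 67.2% to 77.6% of 2-fold changes, depending on the comparison. Shifts shared by many genes of an array were not simulated. Alternatives were a filter at 60% or none, array centring or quantile normalization, averaging the probe sets of a gene, array weights, a fit without the variance trend, one on the compared groups alone, the replicate number as a block, a threshold of 0.01, each array left out in turn, and, added after the data were seen, no low-Xist arrays.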

Additional observations from a re-analysis of the deposited data

How the results depend on the processing

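In E2f8 KO against WT the count of members that fell was 25 to 33 over the fits without 1 array (25 without replicate 2 of WT, beside 6.05% of all genes). It was 26 to 33 under the other alternatives, where 5.73% to 25.6% of all genes fell. In DKO against WT it was 32 to 34 over all these fits, where 11.1% to 23.4% of all genes fell. In DKO against Rb KO it was 33 to 34, beside 11% to 21.5% of all genes. In Rb KO against E2f8 KO 31 to 33 members were higher, beside 6.75% to 23.8% of all genes. For Rb KO against WT the count was 0 to 3 over the fits without 1 array (3 without replicate 1 of Rb KO, beside 0.339% of all genes higher) and the median ran from -0.094 to 1.05, with -0.060 without replicate 2 and -0.094 without replicate 3 of Rb KO, which reversed it. The median of DKO against Rb KO ran from -4.85 (without replicate 1 of Rb KO) to -3.51. In DKO against E2f8 KO the count was 1 to 6 without 1 array (6 without replicate 1 of Rb KO, 1.58% of all genes lower), 9 with array weights, whose fit did not fully converge (8.14%), and 11 with only the arrays compared (3.2%). In the interaction it was 0 to 3 without 1 array (3 without replicate 1 of Rb KO, 0.378% of all genes) and 1 with array weights (0.455%). The Jchain difference of E2f8 KO from WT ran from -0.016 (without replicate 2 of WT, adjusted p = 0.987) to 0.28 without 1 array. Its fall in DKO against E2f8 KO passed the threshold under all alternatives run, at an adjusted p from 2.14e-05 to 0.0279. Quantile normalization and centring changed 0 of the 136 single-gene results. In the main fit all labels share 1 estimate of the spread. Without replicate 1 of Rb KO, the Jchain difference of DKO from E2f8 KO stayed at -3.24. Its standard error was 0.33 there, beside 0.43 in the main fit. The causes of these shifts were not tested.

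Replicate numbers did not pair the arrays: over 18 same-numbered pairs the correlation of deviations from the group means ran from -0.379 to 0.570, with 7 above 0.1. With the replicate number as a block 33 members fell in E2f8 KO against WT, Pou2f2 included (adjusted p = 0.0307), and the counts of the other comparisons did not move. With 3 arrays per label, and in DKO 7 members with a mean under the filter level, small differences and low signals are poorly resolved.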
